A study of Mus musculus with 6 samples.

Results

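Clade B serpins are intracellular protease inhibitors, and 8 of the 27 clade B serpin genes in the deposited table were examined in mouse osteoclast precursors. The 8 genes, Serpinb1a, Serpinb1b, Serpinb2, Serpinb6a, Serpinb6b, Serpinb8, Serpinb9 and Serpinb9b, were chosen by the higher levels of Serpinb9b and Serpinb1b in R+LE than in +R, so the values of R+LE against the other groups chose the members and are given for them as a description without a test. The cells were bone marrow-derived macrophages, which M-CSF grows out of mouse marrow and which the cytokine RANKL turns into osteoclasts. RNA of 3 groups was sequenced, with 2 libraries in each and 24940 genes in the table. The -R cultures received M-CSF alone at 30 ng/mL, the +R cultures received in addition RANKL at 100 ng/mL, and the R+LE cultures received both factors and LE, a methanolic extract of the leaves of Abeliophyllum distichum, at 10 μg/mL. All cultures were kept in these conditions for 3 days, after a pre-culture of 3 days with M-CSF. For the sequenced cultures, no solvent control is described in the labels or methods. The labels give C57BL/6 mice aged 6 to 8 weeks, whereas the methods of the study name ICR mice, and neither says whether the libraries of a group came from separate cultures or animals. The p-values therefore measure only the spread between these libraries, which may be technical.

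A serpin presents a flexible loop as bait to its target protease. After the cut the serpin changes shape and holds the protease in an inactive covalent complex, so each molecule is used up with its target. Clade B members lack a classical signal peptide and act mostly in the cytoplasm and nucleus, where they are known to protect immune cells from granule proteases of their own or of their neighbours.

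Each library held between 29390206 and 34846282 mapped reads, of which 74.25% to 80.69% lay on genes. Levels are RPKM, that is reads per kilobase of transcript scaled to the mapped reads of the library. For a 1 kb transcript, 3 reads equal 0.0861 to 0.1021 RPKM, a limit that covers counting error only. All 6 macrophage markers were detected, and their summed level was 1400 to 1500 RPKM in -R, 792 to 902 in +R, then 703 to 855 in R+LE. Cd68 and Csf1r made up most of each sum. From +R to R+LE their means fell, while those of Adgre1, Itgam, Mertk and Fcgr1 rose. The median log2 difference of the 6 in R+LE against +R was 0.18, and 0 were called. In +R against -R the mean of Itgam rose and those of the others fell. The summed level of 8 osteoclast markers was 43.2 to 44.8 RPKM in -R, 1870 to 2120 in +R, then 329 to 380 in R+LE. The first R+LE library was above the second for 69.1% of the tested genes and for 6 of the 8 serpins, with a median log2 ratio of 0.133 over the tested genes. In a bulk sample, fewer cells of a type and less RNA per cell cannot be told apart.

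A gene was called when its adjusted p was below 0.05 and its fold change was at least 2 on the log2(RPKM + 0.5) scale, a scale that understates the change of low genes. Genes averaging under 0.5 RPKM across the libraries were not tested, which left 11595 genes. Of the 8 serpins, 7 passed. Serpinb1a and Serpinb1b did so only through R+LE, since their means over the other 4 libraries were 0.297 and 0.439 RPKM, and Serpinb2 did not pass. Of the tested genes, 6.58% were called higher and 8.92% lower in +R than in -R. Among the serpins 1 was called higher, Serpinb8, and 3 were called lower, Serpinb6a, Serpinb9 and Serpinb9b. The call of Serpinb9b rests on the same +R values on which it was chosen, so it is not independent of the choice. Nothing is read from the number called against these shares. In R+LE against +R, 1.46% of the tested genes were called higher and 1.78% lower, and in R+LE against -R 3.92% and 6.36%. No call is given for the serpins in this pair of comparisons, only the size of their differences, because R+LE chose them and lifted Serpinb1a and Serpinb1b over the filter. On the same log2 scale, Serpinb1b, Serpinb9 and Serpinb9b were at least 2-fold higher in R+LE than in +R, and Serpinb1a, Serpinb1b, Serpinb6b and Serpinb8 at least 2-fold higher in R+LE than in -R. Nothing is read from these numbers against the shares of all genes. The 3 comparisons share libraries with each other.

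**Figure D1:**
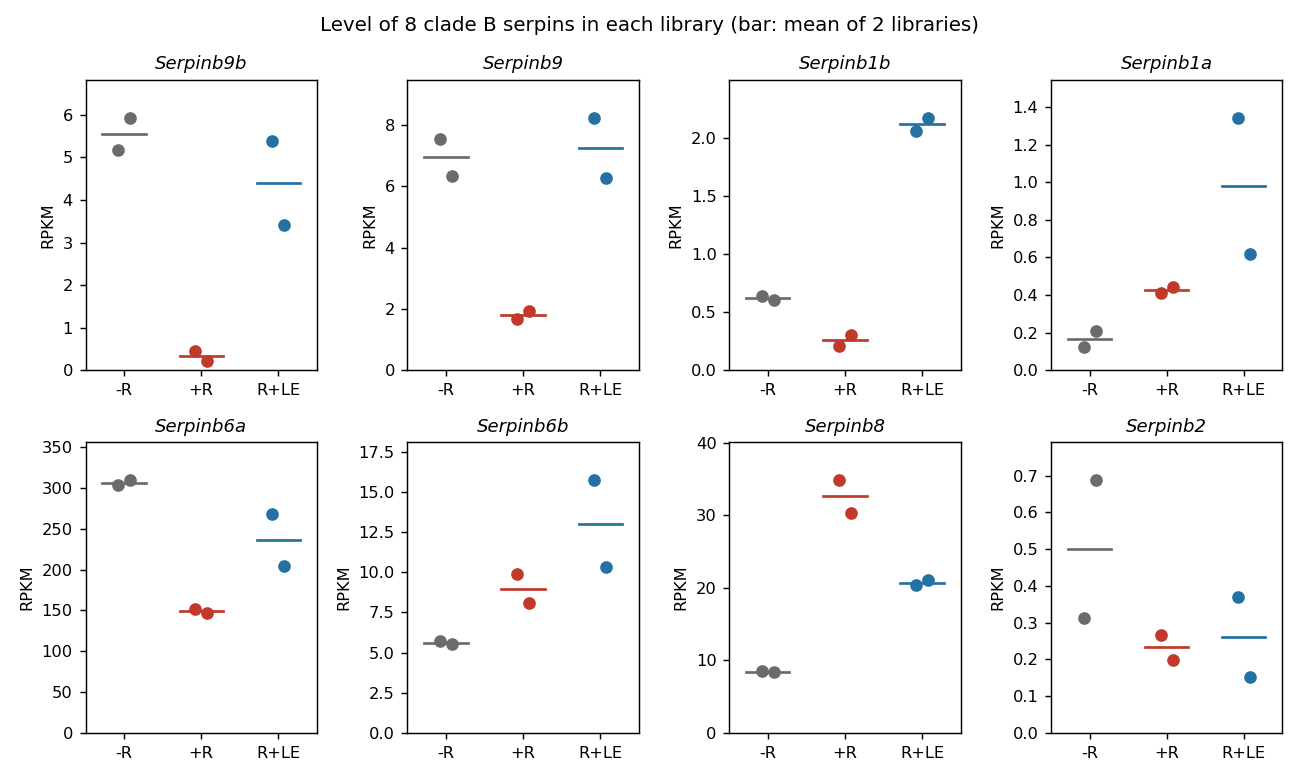
Level in RPKM (vertical axes, each from 0) of the 8 serpins in the libraries of -R, +R and R+LE; each point is 1 library and each bar the mean of 2. Serpinb9b and Serpinb9 are low in both +R libraries and higher in the other groups, while Serpinb8 is highest in +R.

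Serpinb9 is the mouse counterpart of the human inhibitor of granzyme B, the protease with which cytotoxic lymphocytes kill, and Serpinb9b is its neighbour and close paralog. Their 300-base promoter windows, from 250 bases before to 50 bases after the transcript start on the plus strand of GRCm38.p6 in RefSeq, are shown with that of Serpinb1b because these are the 3 serpins at least 2-fold higher in R+LE than in +R. The windows lie at chr13:33004291-33004590 for Serpinb9, chr13:33027164-33027463 for Serpinb9b and chr13:33083853-33084152 for Serpinb1b. Capitals would mark a match to TGACNNNGC, the core of the antioxidant response element, or to TGANTCA, the AP-1 site, on either strand.
Serpinb9: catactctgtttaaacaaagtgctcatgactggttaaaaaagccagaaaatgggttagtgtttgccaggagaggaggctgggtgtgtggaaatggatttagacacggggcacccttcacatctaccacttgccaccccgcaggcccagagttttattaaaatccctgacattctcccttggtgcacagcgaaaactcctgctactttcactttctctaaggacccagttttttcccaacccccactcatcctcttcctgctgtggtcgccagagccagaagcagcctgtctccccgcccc
Serpinb9b: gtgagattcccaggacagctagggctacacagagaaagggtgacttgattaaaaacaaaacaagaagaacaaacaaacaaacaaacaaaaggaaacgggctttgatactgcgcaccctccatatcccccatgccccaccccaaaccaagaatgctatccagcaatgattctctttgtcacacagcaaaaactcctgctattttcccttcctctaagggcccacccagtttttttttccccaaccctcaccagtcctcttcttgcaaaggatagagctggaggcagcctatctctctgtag
Serpinb1b: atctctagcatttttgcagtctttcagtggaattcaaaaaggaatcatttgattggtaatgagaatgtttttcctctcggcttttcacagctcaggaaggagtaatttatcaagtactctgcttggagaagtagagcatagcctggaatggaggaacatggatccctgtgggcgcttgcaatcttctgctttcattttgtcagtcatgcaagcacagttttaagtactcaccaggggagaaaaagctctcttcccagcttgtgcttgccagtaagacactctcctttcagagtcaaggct
None of these 3 windows held a match, which says only that these letters are not in the 300 bases. A match to TGACNNNGC was found in 12.4% and a match to TGANTCA in 7.81% of the 32851 windows of the table, and a single stretch can match both. The windows of Serpinb9 and Serpinb9b shared 57.4% of aligned positions, against 45.8% for Serpinb9 and Serpinb1b and 43.2% for Serpinb9b and Serpinb1b.

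Serpinb9b (NM_011452, mm10 chr13:33027414-33040558, plus strand) had levels of 5.18 and 5.93 RPKM in -R, 0.441 and 0.221 in +R, then 5.40 and 3.40 in R+LE. Both +R libraries were far below all others, and the -R and R+LE libraries overlapped. These levels rest on 292 and 397 reads in -R, on only 26 and 13 in +R, then on 327 and 199 in R+LE. With RANKL Serpinb9b fell by 2.88 on the log2 scale (SE 0.21, adjusted p = 2.34e-08 by limma), and its mean went from 5.55 ± 0.537 to 0.331 ± 0.156 RPKM (SD, n = 2), 16.8-fold lower. This comparison shares the +R libraries with the one on which Serpinb9b was chosen. In R+LE the mean was 4.40 ± 1.41 RPKM (SD, n = 2), 13.3 times that of +R, with a log2 difference of 2.54 (SE 0.21). Against -R the log2 difference of R+LE was -0.33. The size of the changes moved with the pseudocount and the test, from -2.30 to -4.12 for +R against -R and from 2.0 to 3.75 for R+LE against +R over the settings tried, and the direction was the same in each.

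Serpinb9 (NM_009256, mm10 chr13:33004541-33017955, plus strand) had levels of 7.56 and 6.33 RPKM in -R, 1.66 and 1.94 in +R, then 8.25 and 6.29 in R+LE. Its pattern was that of Serpinb9b with a shallower trough, the R+LE libraries spanning those of -R. With RANKL it fell by 1.69 on the log2 scale (SE 0.16, adjusted p = 6.36e-07 by limma), which was 3.85-fold in mean RPKM. R+LE was higher than +R by 1.75 on the log2 scale (SE 0.16), or 4.03 times in mean RPKM, and differed from -R by 0.05. The reads behind Serpinb9 numbered 173 and 202 in +R and at least 649 in every other library. Dendritic cells also carry Serpinb9, and the 4 dendritic cell markers together reached 0.937 to 1.30 RPKM in the libraries of -R, 0.824 to 1.09 in those of +R and 0.096 to 0.213 in those of R+LE. In +R most of that sum was Zbtb46, at a mean of 0.828 RPKM, while Flt3, Cd209a and Ccr7 were at means of 0.009, 0.022 and 0.099 RPKM, and the part of dendritic cells in the Serpinb9 level was not tested.

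Serpinb1b (NM_173052, mm10 chr13:33084103-33094380, plus strand) is a paralog of Serpinb1a, the counterpart of the human inhibitor of neutrophil elastase, cathepsin G and proteinase 3. Its levels were 0.637 and 0.605 RPKM in -R, 0.210 and 0.305 in +R, then 2.06 and 2.17 in R+LE. All 3 groups were apart, with R+LE above -R and -R above +R, so unlike Serpinb9 and Serpinb9b it stood in R+LE above its level without RANKL. The reads numbered 32 and 36 in -R, 11 and 16 in +R, then 111 and 113 in R+LE. In R+LE its mean of 2.11 ± 0.0806 RPKM (SD, n = 2) was 8.21 times that of +R and 3.40 times that of -R, with log2 differences of 1.79 and 1.22 (SE 0.20). In +R against -R the log2 difference was -0.57 (SE 0.20), which is under 2-fold on that scale, although the mean RPKM was 2.41-fold lower. No p is given for Serpinb1b, because it passed the filter only through R+LE. With a pseudocount of 0.1 the log2 difference was -1.02 and with voom on the recovered reads -1.26, so its size depended on the setting. The +R libraries are shared with the comparison on which Serpinb1b was chosen.

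Serpinb1a (NM_025429, mm10 chr13:32842092-32851185, minus strand) had levels of 0.125 and 0.210 RPKM in -R, 0.410 and 0.444 in +R, then 1.34 and 0.619 in R+LE. Its -R libraries lay below those of +R, the reverse of Serpinb1b, and its R+LE libraries were far apart. The reads numbered 7 and 14 in -R and 24 and 26 in +R. The log2 difference of +R against -R was 0.48 (SE 0.26), whereas voom on the recovered reads gave 1.33. No p is given for Serpinb1a, because it too passed the filter only through R+LE. R+LE against -R gave a log2 difference of 1.11 and R+LE against +R one of 0.63. Without the first R+LE library the former was 0.75. Its targets in neutrophils, Elane and Prtn3, were at or below 0.201 RPKM on average in every group, and 9 neutrophil markers together summed to 16.4 to 18.5 RPKM in -R, 0.716 to 0.816 in +R, then 0.592 to 2.52 in R+LE. In -R most of that sum was S100a8 and S100a9, at means of 10.54 and 5.22 RPKM, with Retnlg at 0.942 and the others lower. The highest sum in R+LE was mostly S100a8, at 2.456 RPKM in the first library and 0.509 in the second. The part of neutrophils in the Serpinb1a level was not tested.

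**Figure D2:**
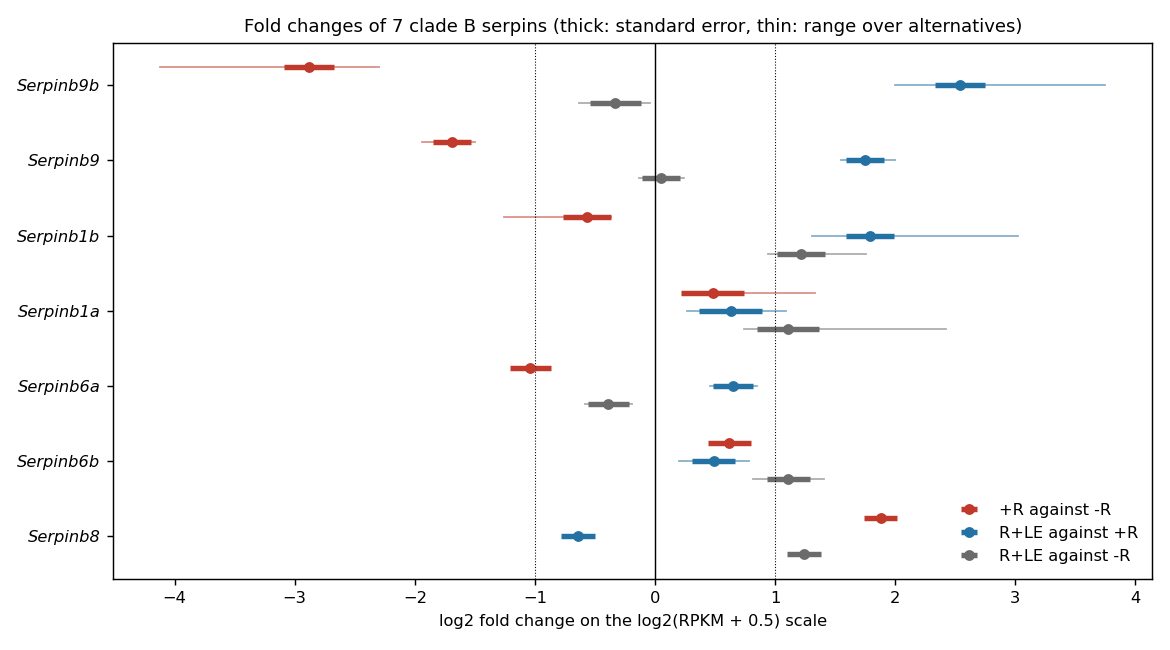
Log2 fold change (horizontal axis, log2(RPKM + 0.5) scale) of the 7 serpins that passed the filter, in 3 comparisons that share libraries; thick bars are standard errors, thin lines the range over the alternatives tried, and dotted lines mark 2-fold. Serpinb9b has the widest range in +R against -R, from -4.12 to -2.30, and Serpinb8 alone lies below 0 in R+LE against +R.

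Serpinb6a, the counterpart of the human cathepsin G inhibitor SERPINB6, was the most abundant clade B serpin. Serpinb6a (NM_009254, mm10 chr13:33917918-33936083, minus strand) had levels of 304 and 309 RPKM in -R, 152 and 146 in +R, then 268 and 204 in R+LE. The 3 groups were apart, with R+LE between the others. With RANKL it fell by 1.04 on the log2 scale (SE 0.17, adjusted p = 0.000149 by limma), 2.06-fold in mean RPKM, on 6389 or more reads in each library. R+LE was 1.59 times +R in mean RPKM, with log2 differences of 0.65 from +R and -0.39 from -R (SE 0.17). Alone it made up 91.3% and 91.5% of the summed clade B level in -R, 75.2% and 77.2% in +R, then 82.7% and 81.6% in R+LE. That sum was 332.5 and 337.9 RPKM in -R, 201.5 and 189.5 in +R, then 324.2 and 250.4 in R+LE.

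The gene 1110046J04Rik lies antisense to Serpinb6a, and in GENCODE M21 277 of 1547 exon bases of Serpinb6a are shared between them. The deposited level used a transcript of 1423 bases. In the deposited coordinates 1110046J04Rik began at 33936032 and Serpinb6a ended at 33936083, so the overlap of the counted transcripts was smaller. Reads were counted on either strand, so reads of both cannot be told apart on the shared bases. The mean level of 1110046J04Rik was 1.81 RPKM in -R, 0.992 in +R, then 0.961 in R+LE, far under that of Serpinb6a. Its log2 difference of R+LE against +R was -0.01 (adjusted p = 0.983 by limma).

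Serpinb6b, an inhibitor of granzyme A, had another order of levels than its paralog. Serpinb6b (NM_011454, mm10 chr13:32965513-32979037, plus strand) had levels of 5.70 and 5.54 RPKM in -R, 9.86 and 8.06 in +R, then 15.7 and 10.3 in R+LE. The groups did not overlap, and -R was lowest where Serpinb6a was highest. In +R against -R the log2 difference was 0.62 (SE 0.18, adjusted p = 0.00978 by limma), 1.59 times in mean RPKM and under the 2-fold threshold. R+LE against +R gave a log2 difference of 0.49 and R+LE against -R one of 1.11 (SE 0.18), and without the first R+LE library the latter was 0.82.

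Serpinb8 is known as an inhibitor of furin, the protease that matures many secreted proteins. It rose with RANKL and was the serpin whose R+LE level lay below that of +R. Serpinb8 (NM_001159748, mm10 chr1:107590006-107606150, plus strand) had levels of 8.51 and 8.40 RPKM in -R, 34.8 and 30.4 in +R, then 20.4 and 21.1 in R+LE. The replicates were close and the 3 groups apart, with R+LE between the others. With RANKL its mean went from 8.46 ± 0.0799 to 32.6 ± 3.15 RPKM (SD, n = 2), a log2 fold change of 1.88 (SE 0.14, adjusted p = 2.75e-08 by limma). R+LE was 1.57-fold lower than +R in mean RPKM, a log2 difference of -0.64, and 2.45 times -R, a log2 difference of 1.24 (SE 0.14). The 8 osteoclast markers moved the same way, all 8 called higher with RANKL and all 8 lower with LE, and the part of cell state in the Serpinb8 level was not tested. The promoter window of Serpinb8, chr1:107589756-107590055 on the plus strand of GRCm38.p6, is shown because it held 2 matches to TGANTCA, in capitals, with first bases at -23 and 14 from the transcript start.
Serpinb8: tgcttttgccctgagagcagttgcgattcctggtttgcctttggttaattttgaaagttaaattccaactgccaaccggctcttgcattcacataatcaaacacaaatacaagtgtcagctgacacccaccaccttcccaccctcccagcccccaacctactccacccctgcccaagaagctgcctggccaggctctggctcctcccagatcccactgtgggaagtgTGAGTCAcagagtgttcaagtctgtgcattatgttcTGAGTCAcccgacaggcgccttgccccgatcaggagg
A match to the AP-1 letters is a description and not a measured site. Such matches were not particular to Serpinb8. On the same chromosome the window of Serpinb11, a clade B serpin below the filter, also held 2. Those of Serpinb5, Serpinb7 and Serpinb10 and 1 window of Serpinb12 held 1 each. Windows of 7 of the 8 serpins were in the table, and Serpinb1a was not among them. The window of Serpinb2 held 1 match to TGANTCA at -94. That of Serpinb6a at its transcript start held 1 match to TGACNNNGC on the strand opposite to the gene at -181. The window of Serpinb6b held neither, and it was set on a start 252 bases from that of the deposited transcript.

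Serpinb2, also called plasminogen activator inhibitor 2, blocks urokinase, the product of Plau. Serpinb2 (NM_001174170, mm10 chr1:107511423-107525600, plus strand) had levels of 0.312 and 0.687 RPKM in -R, 0.266 and 0.199 in +R, then 0.371 and 0.151 in R+LE. The +R libraries lay below those of -R, and R+LE overlapped both. The reads numbered 18 and 47 in -R, 16 and 12 in +R, then 23 and 9 in R+LE, and with a mean of 0.331 RPKM over all libraries the gene was not tested.

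The order of the levels per length differed between groups. In -R it ran Serpinb6a, Serpinb8, Serpinb9, Serpinb6b, Serpinb9b, Serpinb1b, Serpinb2 and Serpinb1a, and the libraries overlapped between Serpinb6b and Serpinb9b and between Serpinb1b and Serpinb2. In +R the first 4 were Serpinb6a, Serpinb8, Serpinb6b and Serpinb9, and the remaining 4, Serpinb1a, Serpinb9b, Serpinb1b and Serpinb2, each overlapped with the next. In R+LE the order was Serpinb6a, Serpinb8, Serpinb6b, Serpinb9, Serpinb9b, Serpinb1b, Serpinb1a and Serpinb2, with no overlap between neighbours. The level per length of Serpinb8 used a transcript of 1223 bases and that of Serpinb9b one of 1920, against 4581 and 3253 bases in GENCODE M21, so their rank among the serpins depends on the transcript model.

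Serpin paralogs may share reads. The coding sequences of Serpinb1a and Serpinb1b were 89.8% identical, those of Serpinb6a and Serpinb6b 85.7% and those of Serpinb9 and Serpinb9b 85.3%. Counted over every stretch of 100 bases, the length of a read end, most of the GENCODE M21 transcripts shared no stretch exactly with another gene. The exceptions were 12.4% of the stretches of Serpinb6a and 2.03% of those of Serpinb9b. Both lie in overlaps with antisense genes, 1110046J04Rik and Gm36099, and not between paralogs. Counted over 50 bases, 18.2% of the stretches of Serpinb6a were shared, 5.62% of Serpinb9b and at most 3.52% of the other serpins. Reads with mismatches were not followed, so values of paralogs remain uncertain to that extent.

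The table held 15 clade B serpins on chromosome 13 and 12 on chromosome 1. Of all 27, 13 had 3 reads or fewer in every library, and 9 of these had none. Apart from the 7 serpins above, 2 others passed the filter. Serpinb12 on chromosome 1 went from 0.279 ± 0.00778 RPKM in -R to 1.12 ± 0.0276 in +R (SD, n = 2), a log2 fold change of 1.06 (adjusted p = 0.00172 by limma), and R+LE differed from +R by 0.02 on the log2 scale (adjusted p = 0.973). Serpinb1c, next to Serpinb1a, passed no test, with a log2 difference of 0.21 for R+LE against +R (adjusted p = 0.678).

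On chromosome 13 the starts of Serpinb6b, Serpinb9, Serpinb9b and Serpinb1b lay 123.4, 162.4, 185.3 and 242.0 kb from that of Serpinb1a, and Serpinb6a lay at 1075.8 kb. Within 200 kb of the serpin locus on chromosome 13 lay 10 other genes, of which 7 were tested and 0 were called in R+LE against +R by limma. Of these, 2 had an adjusted p below 0.05 and were under 2-fold, Tubb2a with a log2 difference of 0.48 (adjusted p = 0.0458) and Tubb2b with one of -0.67 (adjusted p = 0.0376). No other was at an unadjusted p below 0.05, and voom on the recovered reads called 1, Tubb2b. Tubb2a, a tubulin named like Tubb2b after its values were seen, was called lower in +R than in -R, at -2.07 on the log2 scale (adjusted p = 1.98e-08 by limma).

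**Figure D3:**
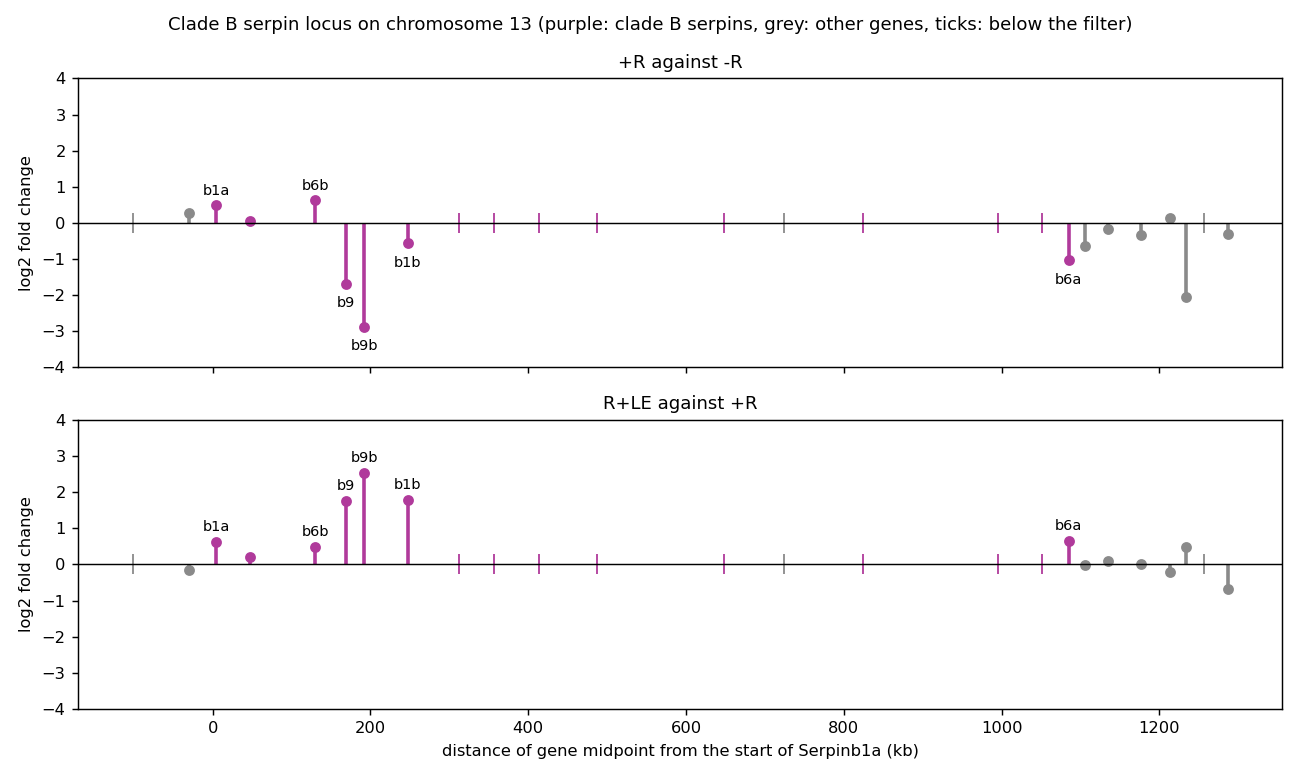
Log2 fold change (vertical axes) of genes in the clade B locus on chromosome 13 against the distance of the gene midpoint from the start of Serpinb1a in kb, for +R against -R (top) and R+LE against +R (bottom). Purple marks clade B serpins, grey other genes and ticks genes below the filter; the high points in the bottom panel are Serpinb9, Serpinb9b and Serpinb1b.

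The genes whose patterns over the 6 libraries were nearest to Serpinb9b and Serpinb1b were found by the Euclidean distance of log2(RPKM + 0.5) values centred on each gene's mean. Nearest to Serpinb9b was Gclm at a distance of 0.401, followed by Slc11a1 at 0.731, Rnf128 at 0.733, Ly6a at 0.831 and Procr at 0.890. Gclm encodes the modifier subunit of the enzyme that limits glutathione synthesis, and its mean was 104.2 ± 0.938 RPKM in -R, 15.05 ± 0.21 in +R, then 96.4 ± 20.4 in R+LE (SD, n = 2). Slc11a1, a metal transporter of the macrophage phagosome, had means of 224.3 RPKM in -R, 30.26 in +R, then 125.0 in R+LE. Serpinb9 came at rank 23, at 1.32. Adding 0.5 shrinks the changes of low genes such as Serpinb9b, so these distances depend on it, and no other pseudocount was tried for them. In mean RPKM Serpinb9b was 16.8-fold lower in +R than in -R, and Gclm 6.92-fold. The mean of R+LE was 13.3 times that of +R for Serpinb9b and 6.4 times for Gclm, so the 2 patterns differed in size.

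Nearest to Serpinb1b was Epha2 at 0.358, followed by Treml4 at 0.409, D330045A20Rik at 0.447, 1700071M16Rik at 0.487 and Pla2g7 at 0.497. Epha2, an ephrin receptor, had means of 3.292 ± 0.0912 RPKM in -R, 2.231 ± 0.153 in +R, then 7.245 ± 0.127 in R+LE (SD, n = 2). Pla2g7, the enzyme that degrades platelet-activating factor, had means of 33.18 RPKM in -R, 21.61 in +R, then 86.22 in R+LE. Here too the distances depend on the added 0.5, which exceeds the level of Serpinb1b in +R. In mean RPKM Serpinb1b was 2.41-fold lower in +R than in -R, and Epha2 1.48-fold. The mean of R+LE was 8.21 times that of +R for Serpinb1b and 3.25 times for Epha2. Serpinb9 came at rank 174 from Serpinb1b, and Serpinb9b and Serpinb1b were 2.44 apart. Both sets of neighbours follow from the values that chose Serpinb9b and Serpinb1b and are descriptions over 6 libraries.

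**Figure D4:**
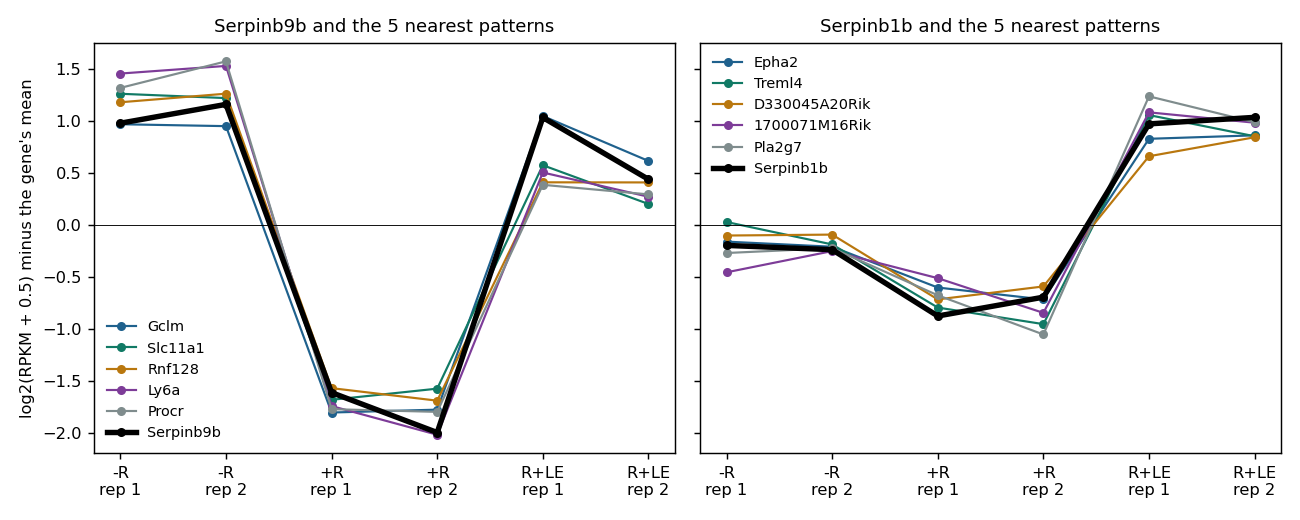
Log2(RPKM + 0.5) minus the gene's own mean (vertical axis) in each of the 6 libraries for Serpinb9b (left) and Serpinb1b (right), in black, and for the 5 genes nearest to each. The curves of Serpinb9b and its neighbours dip in both +R libraries, and those of Serpinb1b and its neighbours peak in both R+LE libraries.

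The known protease partners of the serpins were followed as a list of 14 genes, of which 5 were tested. In +R against -R 1 was called higher and 2 lower, with a median log2 change of -0.59 against 0.05 over all genes, and in R+LE against +R 0 were called by limma or by voom, with 4 at an unadjusted p below 0.05, 2 of them, Casp1 and Casp4, also after adjustment, and a median of 0.10 against -0.05. Furin, the partner of Serpinb8, was 32.05 ± 3.67 RPKM in -R and 13.85 ± 0.617 in +R (SD, n = 2), and fell by 1.18 on the log2 scale (adjusted p = 7.79e-06 by limma) where Serpinb8 rose. In R+LE it was 18.58 ± 1.77 RPKM, a log2 difference of 0.41 from +R (adjusted p = 0.0844). Plau, the partner of Serpinb2, fell by 3.10 on the log2 scale with RANKL (adjusted p = 1.22e-09), from 110.4 ± 11.4 to 12.59 ± 3.40 RPKM (SD, n = 2), and was 9.361 ± 0.662 RPKM in R+LE (log2 difference -0.39, adjusted p = 0.184). The 9 partners not tested include the elastase, granzyme and cathepsin G genes. The summed level of 8 T or NK cell markers, granzymes A and B among them, was at most 0.151 RPKM in any library, and 7 of the 8 had 3 reads or fewer everywhere.

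Caspases are targets of some viral and clade B serpins. Casp4, the caspase that senses bacterial lipopolysaccharide, rose by a log2 fold change of 1.55 with RANKL (adjusted p = 7.44e-07 by limma), from 4.489 to 13.99 RPKM, and was 8.688 RPKM in R+LE (log2 difference -0.66, adjusted p = 0.00859, under 2-fold). Casp1, which matures interleukin-1β, was 46.32, 30.66 and 43.46 RPKM in -R, +R and R+LE, with log2 differences of -0.59 and 0.49 (adjusted p = 0.00357 and 0.0361), both under 2-fold. Casp8, which starts the extrinsic pathway of apoptosis, differed by -0.03 and 0.10 (adjusted p = 0.89 and 0.782).

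Of 11 lysosomal cathepsins, all tested, 2 were called higher and 6 lower in +R than in -R, with a median log2 change of -1.33. Ctsk, the collagen-degrading protease of osteoclasts, rose by 6.72 on the log2 scale (adjusted p = 3.49e-13 by limma), and Ctsl fell by 3.50 (adjusted p = 1.48e-09). In R+LE against +R only Ctsl was called higher, by 1.39 (adjusted p = 0.000236), and only Ctsk lower, by -2.15 (adjusted p = 6.41e-07), with a median of 0.16 over the list.

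Of 16 other intracellular or leukocyte protease inhibitors 10 were tested, and 3 were called higher and 2 lower in +R than in -R, with a median log2 change of 0.43. Slpi, the secretory leukocyte protease inhibitor of elastase and cathepsin G, had the direction of Serpinb9b, with means of 4.19 ± 0.0481 RPKM in -R, 0.412 ± 0.477 in +R, then 1.776 ± 0.217 in R+LE (SD, n = 2). Its log2 changes were -2.47 with RANKL (adjusted p = 2.51e-06 by limma) and 1.42 with LE (adjusted p = 0.0024). Unlike Serpinb9b, Slpi in R+LE stayed below -R, by a log2 difference of -1.05 (adjusted p = 0.00727 by limma). Only 2 and 20 reads of Slpi were held by the +R libraries, so the size of its changes is uncertain. Spint2, an inhibitor of membrane serine proteases, went the other way, with log2 changes of 4.42 (adjusted p = 1.59e-11) and -1.26 (adjusted p = 8.96e-05). In R+LE against +R, 1 of the 10 was called higher and 2 lower, with a median of -0.25. Serpind1, or heparin cofactor II, a serpin of another clade, was 0.301 ± 0.0283 RPKM in -R, 6.265 ± 1.65 in +R, then 1.191 ± 0.0806 in R+LE (SD, n = 2), with log2 changes of 3.06 and -1.98 (adjusted p = 6.46e-09 and 7.58e-06 by limma).

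Against -R, the R+LE libraries had 1 of the 5 tested protease partners called lower and none higher, 2 of the 11 cathepsins higher and 6 lower, and 2 of the 10 other inhibitors higher and 2 lower. The median log2 differences were -0.10, -1.17 and 0.05, against -0.01 over all genes tested. The partner called lower was Plau, at a log2 difference of -3.49 (adjusted p = 8.09e-10 by limma).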

How the data were processed

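RNA was measured in 6 libraries, 2 for each of -R, +R and R+LE, grouped by the sample labels. The authors aligned paired ends of 100 bp to mm10 (TopHat in the methods, HISAT2 in the submitters' processing notes) and counted reads on exons of either strand with HOMER, 1 transcript per gene, and they deposited RPKM under titles that say FPKM. The labels and methods give no versions. Values fell on whole reads, within 0.02 reads and rounding, in 99.992% of those checked, which gave each library's depth. Read ends were counted one by one, so reads are not independent molecules.

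limma 3.58.1 (R 4.3.3) fitted log2(RPKM + 0.5) of all 6 libraries with a variance trend and Benjamini-Hochberg adjustment over 11595 genes, and was tested on simulated data. An exact permutation test of 2 against 2 libraries cannot go below 0.333 and was not used. Python 3.11.15, pandas 2.3.3 and Biopython 1.88 handled tables and alignments. Transcripts came from GENCODE M21 and promoters from RefSeq GRCm38.p6. As alternatives the pseudocount was set to 0.1 or 1, the filter dropped or raised to 1 RPKM, the variance trend left out, the fit limited to the compared groups, and median centring, quantile normalization, the replicate block, voom on recovered reads and leaving out each library were tried. The members and lists were chosen with earlier results of these data known. Genes named are the serpins, list genes that are protease partners or among the 3 largest changes of a list, and the 5 nearest patterns, and any other was chosen after its values were seen. Protein sequences were not used here, so identity was computed on coding sequences. All 26 symbols that a spreadsheet had turned into dates were restored from transcript identifiers. The results of 1 listed gene, and of the lists that hold it, are not reported here.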

Additional observations from a re-analysis of the deposited data

How the results depend on the processing

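The number of serpins at least 2-fold higher in R+LE than in -R, a description since R+LE chose them, went from 4 to 2 with a pseudocount of 1 and to 2 with a minimum mean of 1 RPKM, which left Serpinb6b and Serpinb8 in both. It ranged from 2 to 4 when 1 library was left out, with 2, Serpinb1b and Serpinb8, without the first R+LE library. A stricter minimum removes Serpinb1a and Serpinb1b by construction, and for the other changes the cause was not tested. The calls of +R against -R numbered 4 to 6 serpins. Serpinb6a, Serpinb8, Serpinb9 and Serpinb9b were called in every setting, Serpinb9b with the +R libraries on which it was also chosen. Only Serpinb1a and Serpinb1b came in addition, and nothing is read from those calls since both passed the filter only through R+LE. The genes called numbered 1518 to 2138, 275 to 525 and 956 to 1504 in the 3 comparisons. The numbers of genes called, and of serpins called in +R against -R, stayed within 1.5 times those of the main setting. The replicate numbers of the labels are not said to pair cultures, and the correlations of same-numbered deviations were -0.046, 0.107 and 0.249 across 11595 genes. With the replicate block 1801, 389 and 1200 genes were called, against 1797, 375 and 1192 without it, and 4 serpins in +R against -R with and without it. No fold change of a serpin called in +R against -R changed sign under these alternatives. Depth limits Serpinb1a, Serpinb1b and Serpinb2, and Serpinb9b in +R, where libraries held 7 to 47 reads outside R+LE.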
